A study of Mus musculus with 6 samples.

Results

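The 9 genes described here are reported to respond to androgen in Sertoli cells, the somatic nurse cells of the seminiferous tubule, and were followed in RNA-seq of whole mouse testis. They were Drd4, Serpina5, Tsx, Gpd1, Rhox5, Eppin, Corin, Tubb3 and Fkbp5, picked by symbol because they are reported targets of the androgen receptor in testis, and all 9 were among the 38715 genes of the deposited table. The study compared a control group with a group of mice exposed to MES, which its title links to exposure in early life and to testosterone production. The 6 libraries carry 2 group names, 3 being Control and 3 Middle, and Middle is taken here for the exposed one, being the only group beside Control. The strain, genotype and age of the mice, the dose, the route and the time of exposure, the full name behind MES and whether each library is 1 animal are details not given in the sources used here. All p-values thus cover the spread among libraries, which may be technical.

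Androgens reach Sertoli cells from the neighbouring Leydig cells, which make testosterone. The hormone binds the androgen receptor, a ligand-activated transcription factor held ready by heat shock proteins and their co-chaperones, and the bound receptor pairs up on DNA at androgen response elements. Germ cells do not need a receptor of their own for spermatogenesis, and the Sertoli cell passes the androgen signal on to them. Rhox5 is the classic readout of this step.

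The values are RPKM, reads scaled to gene length and to library size, as the authors deposited them. The libraries held 38820385 to 58389391 reads over genes, and the 9 genes held from 89 reads (Drd4, Control replicate 3) to 2785 (Rhox5, Middle replicate 3). A gene was tested when its mean reached 1 RPKM in at least 1 group, which 15040 genes did. All 9 passed, but Drd4 did so only through the Middle group, so its passing is tied to its being higher there. Middle replicate 1 stood apart from the other 5 libraries on the first principal component of all tested genes, at 27.0 where the others lay between -15.0 and 4.90. The difference of each of the 9 genes is therefore given with and without it. Most single genes of the other lists are given with all 6 libraries only. In whole tissue, more cells of a type and more RNA per cell cannot be told apart.

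To show where the receptor could be looked for, promoters were matched by symbol in RefSeq (build GRCm38.p6), which gave a window of 250 bases before the gene start for 8 of the 9 genes. Gpd1 had no entry. The letters searched were the single element TGTTCT and, built from it and its complement, the inverted repeat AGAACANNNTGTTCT and the direct repeat AGAACANNNAGAACA, each on both strands. Both repeats hold the single element. The windows of the 3 genes whose groups did not overlap (below) and of Rhox5 are shown 5′ to 3′, with single elements in capitals.
Drd4, chr7:141291768-141292017, plus strand: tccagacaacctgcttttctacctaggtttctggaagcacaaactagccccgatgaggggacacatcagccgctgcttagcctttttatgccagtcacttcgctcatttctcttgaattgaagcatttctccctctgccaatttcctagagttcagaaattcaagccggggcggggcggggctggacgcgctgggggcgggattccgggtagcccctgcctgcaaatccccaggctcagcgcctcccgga
Serpina5, chr12:104100863-104101112, plus strand: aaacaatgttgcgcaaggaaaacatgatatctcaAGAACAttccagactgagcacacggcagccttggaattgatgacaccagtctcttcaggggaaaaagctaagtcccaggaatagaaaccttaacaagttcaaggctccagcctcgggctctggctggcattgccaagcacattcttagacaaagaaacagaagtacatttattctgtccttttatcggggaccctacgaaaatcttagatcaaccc
Tsx, chrX:103414217-103414466, plus strand: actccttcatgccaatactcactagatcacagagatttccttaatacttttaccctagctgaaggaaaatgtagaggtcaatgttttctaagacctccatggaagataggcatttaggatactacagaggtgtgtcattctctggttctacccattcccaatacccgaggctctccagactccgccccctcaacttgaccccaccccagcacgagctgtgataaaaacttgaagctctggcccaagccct
Rhox5, chrX:37754358-37754607, plus strand: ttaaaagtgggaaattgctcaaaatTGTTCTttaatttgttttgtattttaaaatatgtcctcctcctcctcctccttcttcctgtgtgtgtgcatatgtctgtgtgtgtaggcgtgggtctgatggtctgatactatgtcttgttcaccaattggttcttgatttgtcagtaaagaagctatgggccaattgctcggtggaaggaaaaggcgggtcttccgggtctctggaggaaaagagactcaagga
Serpina5 held 1 such element, 216 to 211 bases before its start, and Rhox5 held 1, 225 to 220 bases before its start. The other 6 windows held none, and none of the 8 held either repeat. Over all 32851 windows of this length in the table, 16.08% held the single element, 0.009132% the inverted repeat and 0.01826% the direct repeat. A match is a description of letters, and the window is the only stretch searched. Rhox5 is known to have a proximal and a distal promoter, and which of them this window covers was not determined.

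No member passed the test between Middle and Control after adjustment over all genes, while every member had a higher mean in Middle. The test was limma on log2(RPKM + 1), two-sided, with a threshold of 0.05 on the adjusted p. It called 0 of 9 members, and 0.0532% of all tested genes. Without Middle replicate 1 it again called 0 of 9, and 0.00664% of the genes then tested. At an unadjusted p under 0.05 the count was 5 of 9, where the background over all genes was 20.7%. With the filter set on the mean of all 6 libraries instead, which left out Drd4, it was 4 of 8, against 20.7%. A second tool, limma-voom on reads recovered from the RPKM values, gave 0 of 9 called, against 0.0419% of its genes, and 5 of 9 at an unadjusted p under 0.05, against 17.9%. Of all tested genes 55.9% had a log2 fold change above 0. The median log2 fold change was 0.25 over the 9 members, 0.23 over the 8 without Drd4 and 0.03 over all tested genes. The members had been chosen with these data in view, so the counts describe them and are no test of the group.

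**Figure D1:**
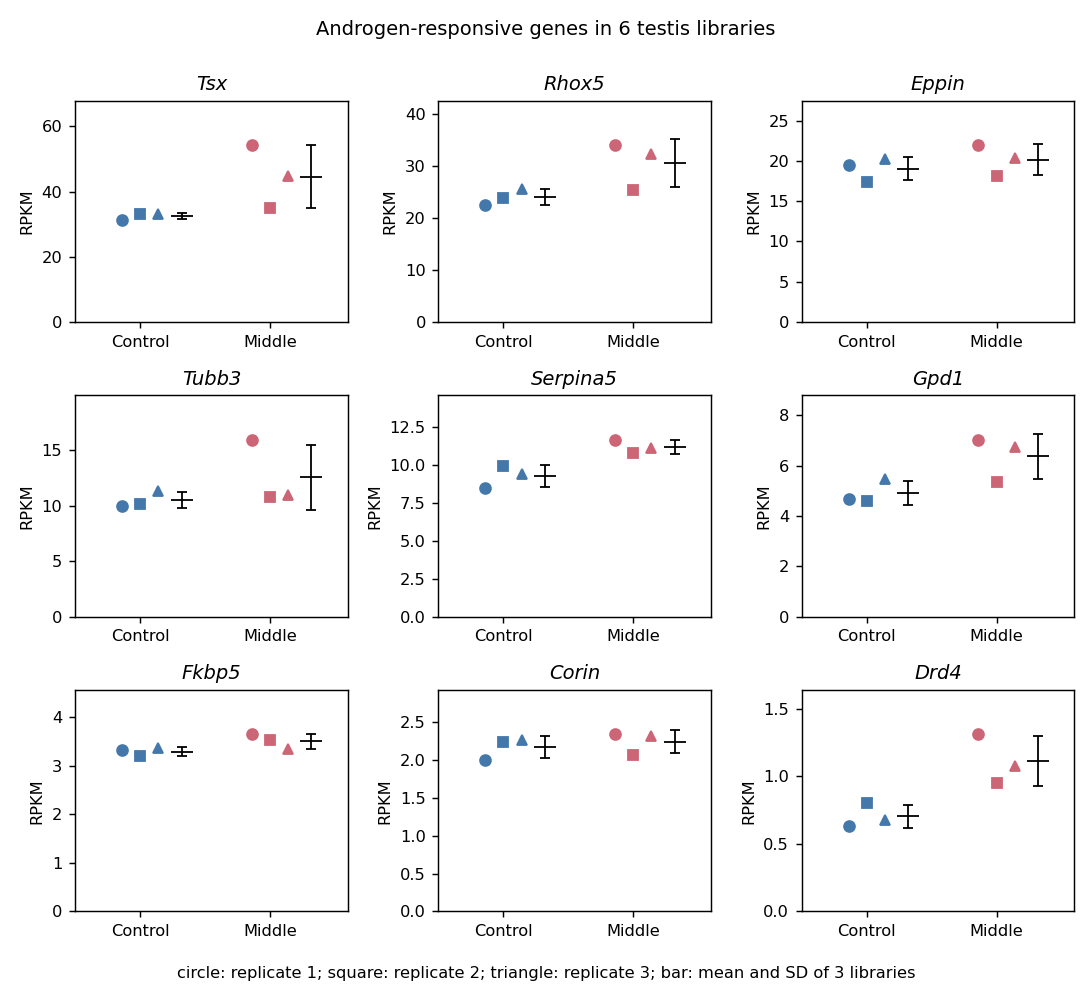
RPKM (vertical axes, each from 0) of the 9 genes in 3 Control (blue) and 3 Middle (red) libraries, with symbols for the replicates and a bar for the mean and SD of each group. Middle replicate 1 (circle) is the highest of the 6 libraries for all 9 genes, and the groups are apart for Tsx, Serpina5 and Drd4.

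The X-linked genes Tsx and Rhox5 had the highest levels of the 9 in RPKM. Tsx (GRCm39, chromosome X, 102458073 to 102468186) lies in the X inactivation centre and is expressed in Sertoli cells. Tsx was at 31.3, 33.0 and 33.1 RPKM in Control replicates 1 to 3 and at 54.3, 34.9 and 44.7 RPKM in Middle replicates 1 to 3. All 3 Middle libraries lay above all 3 Control libraries, and the spread was far wider in Middle (CV 21.7%) than in Control (CV 3.08%). The means were 32.5 ± 0.999 and 44.6 ± 9.70 RPKM (SD, n = 3 each), a ratio of 1.37. On the log2 scale the difference was 0.43 (SE 0.14) and was not called (adjusted p = 0.186, limma). Without Middle replicate 1 it was 0.28 (SE 0.10, adjusted p = 0.271, limma). Tsx shares 37 exonic bases, 4.56% of its own, with Gm26992 on the same strand, whose mean was 16.3 RPKM in Control and 23.8 in Middle. The reads of the shared stretch cannot be told apart.

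Rhox5 (chromosome X, 36891636 to 36897311) encodes a homeobox transcription factor of Sertoli cells. It was at 22.5, 23.9 and 25.6 RPKM in the Control libraries and at 34.0, 25.4 and 32.3 RPKM in the Middle libraries. Middle replicate 2 lay just below Control replicate 3, so the groups overlapped by that 1 library, while the other 2 Middle libraries lay well above. The means were 24.0 ± 1.54 and 30.6 ± 4.59 RPKM (SD, n = 3 each), a ratio of 1.27. The log2 fold change, 0.33 (SE 0.11), was not called (adjusted p = 0.190, limma). Without Middle replicate 1 the log2 fold change was 0.25, with a 95% interval from -0.01 to 0.50. No other gene of the table lay within 5000 bases of Rhox5.

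Of the protease inhibitors, Serpina5 had libraries of the groups that were apart, and Eppin had libraries that overlapped. Serpina5 (chromosome 12, 104067372 to 104072396), also called protein C inhibitor, is needed for male fertility in mice. It was at 8.50, 9.93 and 9.40 RPKM in Control and 11.7, 10.8 and 11.1 RPKM in Middle. Every Middle library lay above every Control library, and Middle was the tighter group (CV 4.04% against 7.83%). The ratio of means was 1.20, and the log2 fold change, 0.25 (SE 0.07), was not called (adjusted p = 0.178, limma). It was the value least moved by leaving out Middle replicate 1 among the 5 genes with an unadjusted p under 0.05, at 0.22 without it.

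Eppin (chromosome 2, 164430263 to 164435514) carries a Kunitz and a WAP inhibitor domain and coats sperm. It was at 19.4, 17.4 and 20.2 RPKM in Control and 22.0, 18.2 and 20.3 RPKM in Middle, so the libraries of the groups were interleaved. The log2 fold change was 0.08 (95% interval -0.13 to 0.28; adjusted p = 0.608, limma), and 0.02 without Middle replicate 1. Its neighbour Wfdc6a, which shares no exonic base with it, had a mean of 16.2 RPKM in Control and 18.9 in Middle.

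Drd4, the dopamine D4 receptor, had the largest ratio and the lowest level. It lies on chromosome 7 (140871919 to 140876377) and was at 0.631, 0.800 and 0.678 RPKM in Control and 1.31, 0.951 and 1.08 RPKM in Middle. The lowest Middle library was above the highest Control library. The ratio of means was 1.58, and 1.44 without Middle replicate 1. The log2 fold change of 0.31 (SE 0.09; adjusted p = 0.178, limma) is on the RPKM + 1 scale and understates the change of a gene this low. With a pseudocount of 0.01 in place of 1 it was 0.65 (adjusted p = 0.184, limma), the widest of the 9 on that scale, where Tsx was at 0.44. Its reads, 89 to 210 a library, limit it: counted as pairs of mates, they carry a counting error of 9.76% to 15.0%, where its CV was 12.4% in Control and 16.4% in Middle.

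Gpd1 (chromosome 15, 99615396 to 99622886), the cytosolic glycerol-3-phosphate dehydrogenase that links glycolysis to lipid synthesis, was at 4.69, 4.58 and 5.45 RPKM in Control and 7.03, 5.36 and 6.73 RPKM in Middle. As with Rhox5, Middle replicate 2 alone fell within the Control range. The ratio of means was 1.30 and the log2 fold change 0.32 (SE 0.11; adjusted p = 0.188, limma), or 0.25 without Middle replicate 1. Gpd1 shares 384 exonic bases, 12.97% of its own, with Gm16537 on the opposite strand, which went the same way (4.96 and 6.08 RPKM). Whether counting used the strand is a detail not given in the sources used here, and reads of this stretch cannot be told apart.

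Tubb3 rested on 1 library. Tubb3 (chromosome 8, 124138163 to 124148754), the class III beta-tubulin known from neurons and also found in Sertoli cells, was at 9.98, 10.1 and 11.3 RPKM in Control and 15.9, 10.8 and 10.9 RPKM in Middle. Middle replicates 2 and 3 lay inside the Control range and replicate 1 lay far above it. The ratio of means was 1.20 with all libraries and 1.04 without Middle replicate 1, and the log2 fold change went from 0.22 (SE 0.14; adjusted p = 0.381, limma) to 0.05 (SE 0.07).

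Fkbp5 and Corin were the pair with the smallest log2 differences when all 6 libraries were used, while without Middle replicate 1 Corin (0.01) and Eppin (0.02) lay below Fkbp5 (0.05). Fkbp5 (chromosome 17, 28618068 to 28736501), a co-chaperone of steroid receptors that androgens, progestins and glucocorticoids induce in many tissues, was at 3.33, 3.19 and 3.36 RPKM in Control and 3.65, 3.53 and 3.34 RPKM in Middle. Middle replicate 3 lay below Control replicate 3. The log2 fold change was 0.07 (95% interval -0.09 to 0.22; adjusted p = 0.552, limma). Corin (chromosome 5, 72457368 to 72661816), a membrane protease that activates atrial natriuretic peptide, was at 2.01, 2.24 and 2.27 RPKM in Control and 2.34, 2.07 and 2.32 RPKM in Middle. The libraries of the groups were interleaved, with a log2 fold change of 0.03 (95% interval -0.14 to 0.21; adjusted p = 0.812, limma).

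**Figure D2:**
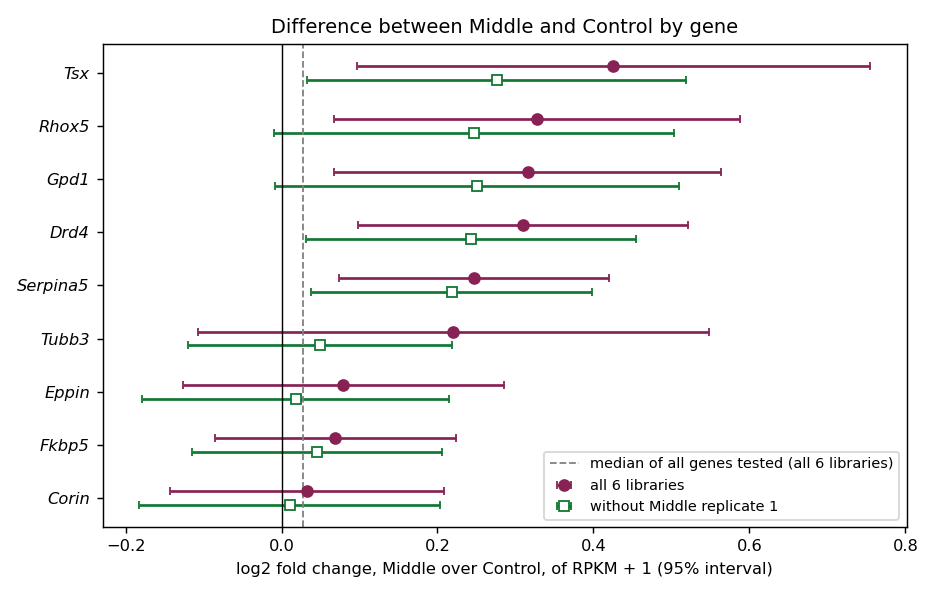
Log2 fold change of RPKM + 1, Middle over Control, for each gene with its 95% interval, with all 6 libraries (circles) and without Middle replicate 1 (open squares). The dashed line is the median of all tested genes, 0.03. Tsx moves from 0.43 to 0.28 and Tubb3 from 0.22 to 0.05 when Middle replicate 1 is left out.

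The groups were thus apart for Tsx, Drd4 and Serpina5 (log2 fold changes 0.25 to 0.43). They overlapped for Rhox5 (0.33) and Gpd1 (0.32), where only Middle replicate 2 fell within the Control range. They also overlapped for Tubb3, Eppin, Fkbp5 and Corin (0.03 to 0.22). The groups did not overlap for 3 of 9 members, all higher in Middle, against 17.9% of all tested genes in that direction. Among the 3 was Drd4, which passed the filter only through the Middle group. Without Middle replicate 1 the same count was again 3 of 9, for Tsx, Serpina5 and Drd4, against 22.7%. The log2 fold change was above 0 for 9 of 9 members without that library, against 57.7% of all genes, and 3 of 9 had an unadjusted p under 0.05 against 16.3% of all genes. The median over the members was then 0.22. With each library's trend on transcript GC content also removed, 6 of 9 lay above 0, against 51.5% of all genes. With Control replicate 1 left out instead, 8 of 9 did, against 54.3%.

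The order of the libraries was alike in several members. Middle replicate 1 was the highest of the 6 libraries for 9 of 9 members, where it was the highest for 32.6% of all tested genes. The lowest library was Control replicate 1 for 6 members and Control replicate 2 for 3. Within Middle, Tsx was at 167% of its Control mean in replicate 1, 138% in replicate 3 and 108% in replicate 2. Rhox5 (142%, 135% and 106%), Gpd1 (143%, 137% and 109%), Drd4 (187%, 154% and 135%) and Serpina5 (126%, 120% and 116%) had the same order of replicates 1, 3 and 2. Eppin (116%, 107% and 95.6%) and Corin (108%, 107% and 95.3%) had it too, with replicate 2 below the Control mean. Tubb3 had 152% in replicate 1 and 103% to 104% in the other 2. Fkbp5 had another order, with 111% in replicate 1, 107% in replicate 2 and 101% in replicate 3. The genes were chosen with these data in view, so the order is a description.

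The order of levels, which RPKM allows to be compared between genes, was the same in both groups: Tsx, Rhox5, Eppin, Tubb3, Serpina5, Gpd1, Fkbp5, Corin and Drd4. In Control, neighbours in this order did not overlap over the 3 libraries, although Tubb3 (lowest 9.98 RPKM) and Serpina5 (highest 9.93 RPKM) almost met. In Middle, Tubb3 and Serpina5 overlapped and the other neighbours did not.

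Sertoli cell markers lay above 0 too, by less. Of 17 Sertoli markers 12 were tested, 10 above 0 and 2 below, with a median log2 fold change of 0.12 against 0.25 for the androgen-responsive genes. The count was again 10 of 12 without Middle replicate 1, with a median of 0.10. None of the 12 was called (limma), 2 had an unadjusted p under 0.05, where 20.7% of all tested genes did, and limma-voom called none. The groups did not overlap for 3 of the 12, all higher in Middle, against 17.9% of all tested genes in that direction. Among them was Gata4, at a log2 fold change of 0.25 (adjusted p = 0.178, limma), as high as the median of the androgen-responsive genes. Sox9 and Wt1, the transcription factors that define the cell, were at 2.28 ± 0.105 and 2.16 ± 0.166 RPKM in Control and 2.76 ± 0.184 and 2.40 ± 0.245 RPKM in Middle (SD, n = 3 each). Clu, the most abundant of the markers, was at 137 ± 4.48 and 141 ± 8.13 RPKM. Rhox8, also a Sertoli marker, is counted with the androgen genes further on. Amh and Fshr were below the filter, at 0.263 and 0.366 RPKM in Control. The markers summed to 281 to 297 RPKM in Control and 298 to 306 RPKM in Middle.

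The androgen-responsive genes were also set against the Sertoli markers of the same library. The geometric mean of the 9 genes was 95.4%, 100.3% and 104% of its Control mean in the Control libraries and 137%, 108% and 121% in Middle replicates 1 to 3. That of the 12 Sertoli markers was 97.7%, 96.8% and 105% and then 109%, 103% and 109%. The ratio of the 2 geometric means was 0.750, 0.796 and 0.759 in Control and 0.965, 0.807 and 0.852 in Middle. Every Middle value of this ratio lay above every Control value, with Middle replicate 2 only just above Control replicate 2. No test was made of this ratio, since the members were chosen with results known. They include Drd4, which passed the filter only through the Middle group. Of the 12 markers 10 lay above 0, but Cst9 had a Control mean of 18.1 RPKM and was at 8.67 RPKM in Middle replicate 1. That lowers the geometric mean of the markers in that library, and the ratio without Drd4 or Cst9 is not given here.

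**Figure D3:**
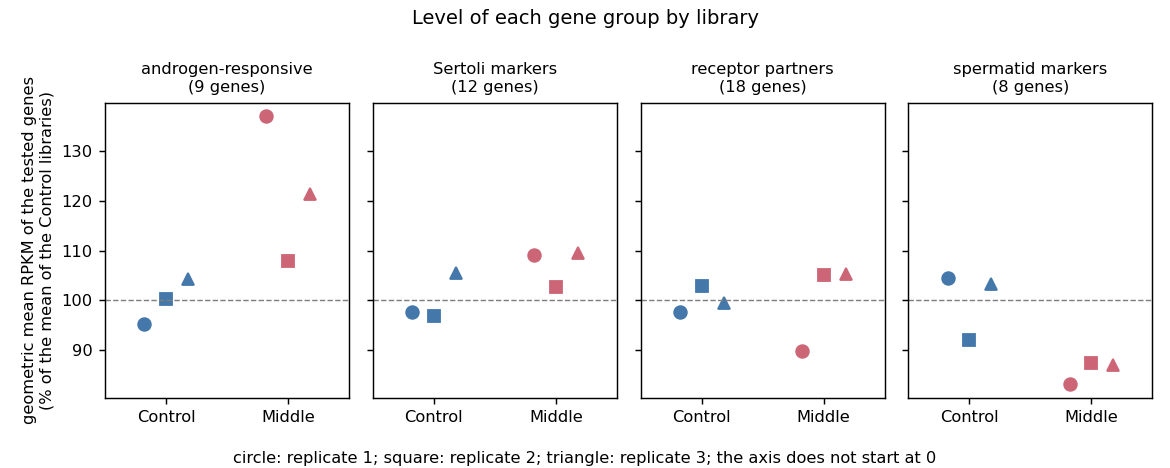
Geometric mean RPKM of the tested genes of 4 groups in each library, as a percentage of the mean of the Control libraries (the axis does not start at 0). The androgen-responsive genes reach 137% in Middle replicate 1, where the Sertoli markers reach 109%, the receptor partners 89.9% and the spermatid markers 83.3%.

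The chaperones and coregulators that steroid receptors work with were split, and the split depended on Middle replicate 1. Of 20 such genes 18 were tested, 8 above 0 and 10 below, with a median log2 fold change of -0.0049. Without that library 14 of the 18 lay above 0, with a median of 0.03. None of the 18 was called (limma, or limma-voom), and 4 had an unadjusted p under 0.05, where the shares over all genes were 20.7% in limma and 17.9% in limma-voom. The chaperone Hsp90ab1 averaged 206 ± 14.3 RPKM in Control against 250 ± 22.0 in Middle, and its co-chaperone Stip1 at 134 ± 10.7 and 162 ± 13.2 RPKM (SD, n = 3 each). Hsp90aa1, the other cytosolic chaperone of this kind and the most abundant gene of the list, was at 844 ± 59.5 and 800 ± 96.1 RPKM, and the SUMO ligase Pias1 had a ratio of means of 0.868, with all Middle libraries below all Control libraries. Fkbp4, the close relative of Fkbp5 that promotes receptor activity, was at 307 ± 1.33 and 321 ± 27.5 RPKM, and the corepressor Ncor1 was at 5.44 ± 0.236 and 5.19 ± 1.01 RPKM.

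Of 7 further genes reported as androgen-responsive in Sertoli cells or as part of their junctions, 4 lay above 0 and 3 below, with a median of 0.04, and without Middle replicate 1 it was 6 of 7 above 0, with a median of 0.09. None was called (limma or limma-voom), and 2 had an unadjusted p under 0.05 in limma, where 20.7% of all tested genes did. The groups did not overlap for 3 of the 7, all higher in Middle, against 17.9% of all tested genes in that direction. Rhox8, a homeobox gene next in kind to Rhox5, was at 36.5, 31.2 and 36.9 RPKM in Control and 64.9, 40.1 and 43.1 RPKM in Middle. Its groups did not overlap, and its log2 fold change was 0.46 (SE 0.17; adjusted p = 0.206, limma), or 0.25 without Middle replicate 1. B4galnt1, a glycosyltransferase of ganglioside synthesis, was at 5.05 ± 0.199 and 6.35 ± 0.922 RPKM (SD, n = 3 each). The junction genes Cldn3 (27.4 ± 1.13 and 28.5 ± 4.48 RPKM) and Ocln (1.34 ± 0.0991 and 1.30 ± 0.124 RPKM) overlapped between the groups.

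Because Fkbp5 also responds to glucocorticoids, 10 genes of the glucocorticoid receptor and its common targets were read beside it. Of these 7 were tested, 6 above 0 and 1 below, with a median log2 fold change of 0.08 and none called or at an unadjusted p under 0.05 (limma; limma-voom called none). Leaving out Middle replicate 1 gave 5 of 7 above 0, with a median of 0.06. Tsc22d3, the glucocorticoid-induced leucine zipper, was at 1.70 ± 0.0964 and 2.01 ± 0.158 RPKM, and the clock gene Per1 at 6.92 ± 0.680 and 7.08 ± 0.146 RPKM (SD, n = 3 each).

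**Figure D4:**
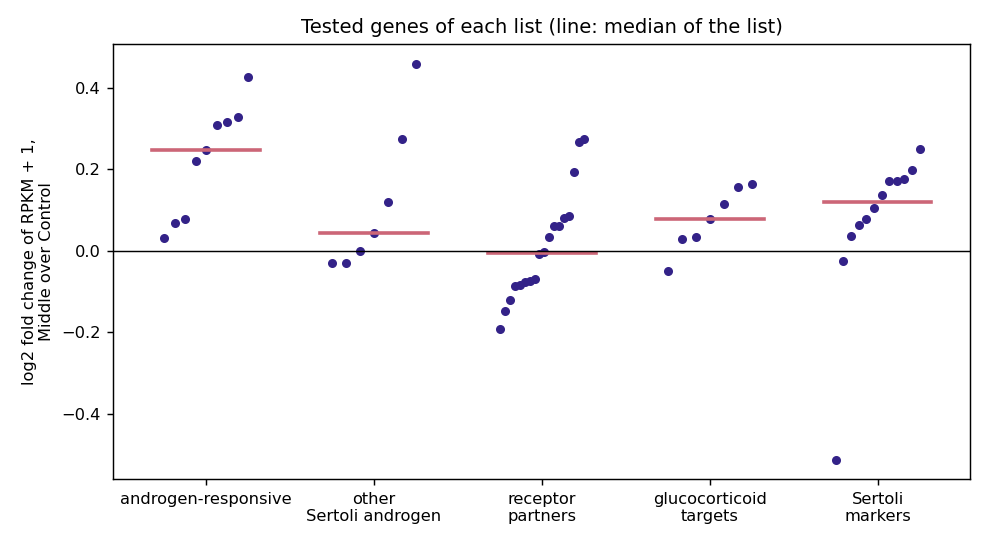
Log2 fold change of RPKM + 1, Middle over Control, of each tested gene (points) of 5 lists, with the median of each list (line). The medians are 0.25 for the 9 androgen-responsive genes, 0.04 for the other Sertoli androgen genes, -0.0049 for the receptor partners, 0.08 for the glucocorticoid targets and 0.12 for the Sertoli markers.

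Several members are also expressed outside the testis, so markers of tissues that could come along in dissection were summed. Eppin and Serpina5 are known from the epididymis and the seminal vesicle. Of 10 epididymal markers, 8 were in the table and summed to 293 to 317 RPKM in Control and 252 to 317 RPKM in Middle, nearly all of it Cst8, which the testis also expresses. Adam7 was at 0 in all Control libraries and Crisp1 at 0.0121 RPKM in Control and 0.0184 in Middle. Of 7 seminal vesicle markers, 6 were in the table and summed to 2.53 to 3.91 RPKM in Control and 2.64 to 3.14 in Middle, with Semg1 at 0 in all Middle libraries. The 9 adipocyte markers, read beside Gpd1, summed to 3.65 to 4.09 RPKM in Control and 2.90 to 3.15 in Middle. Most of that sum was Adipoq, at 2.89 ± 0.128 and 2.09 ± 0.155 RPKM (SD, n = 3 each). Adipoq and Retn (0.313 and 0.149 RPKM) were lower in every Middle library than in every Control library. Plin1 (0.279 and 0.347 RPKM), Cidec (0.158 and 0.220 RPKM) and Plin4 (0.0290 and 0.0580 RPKM) were higher in every Middle library than in every Control library. All of these but Adipoq were at levels below the filter, and the remaining adipocyte markers overlapped between the groups. No share over all genes is given here for groups lying apart at such levels, or lower in Middle. The 8 neuronal markers, read beside Tubb3, summed to 7.18 to 7.79 and 5.59 to 6.56 RPKM, with 5.59 in Middle replicate 1. Nearly all of it was Map2, at 4.74 RPKM in that library, while Elavl4, at 0.439 RPKM there, was at its highest of the 6 libraries. Of 5 heart markers, read beside Corin, 4 were in the table and summed to 3.74 to 4.43 and 3.99 to 5.66 RPKM, with 5.66 in Middle replicate 1. Nearly all of it was Tnnt2 and Myh6, both highest in that library, at 3.28 and 2.15 RPKM. Myl7 was at 0 in all Middle libraries. The part of these tissues in the members' values was not tested.

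Leydig cell markers, from the cells that make the hormone, were split: 4 of 7 tested lay above 0 (median log2 fold change 0.08), and 3 of 7 without Middle replicate 1 (median -0.07). They summed to 270.5 to 325 RPKM in Control and 299 to 332 RPKM in Middle, most of it Insl3 (213 and 237 RPKM). Star, which brings cholesterol into mitochondria for steroid synthesis, was the 1 gene of the list whose groups did not overlap. Its mean was 5.80 ± 1.10 RPKM for Control against 3.44 ± 0.670 RPKM for the lower Middle group (SD, n = 3 each). The share of all tested genes that lay apart and lower in Middle is not given here, so this count has no background. Star was not called (log2 fold change -0.62, adjusted p = 0.178, limma), and was at -0.70 without Middle replicate 1. Without that library the groups also did not overlap for Cyp17a1, lower in Middle (-0.47), and Insl3, higher in Middle (0.17). In the higher direction 22.7% of all genes then tested lay apart, and the share in the lower direction is again not given. Of 6 peritubular myoid markers, from cells that also hold the androgen receptor, 5 lay above 0 (median 0.19, or 0.15 without Middle replicate 1), with sums of 191 to 213 and 174 to 202 RPKM. Most of each sum was Actg2, the 1 gene below 0, at 160 and 140 RPKM.

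Other measures moved with the members. The 8 ribosomal protein genes read beside the members were all above 0 (median 0.27, or 0.19 without Middle replicate 1). They summed to 738 to 790 RPKM in Control and 830 to 1036 RPKM in Middle, with 1036 in Middle replicate 1. The groups did not overlap for 7 of the 8, against 17.9% of all tested genes in that direction. An unadjusted p under 0.05 (limma) was reached by 7 of the 8, against 20.7%. The 8 spermatid markers were all below 0 (median -0.19), at 27661 to 30645 RPKM summed in Control and 25986.5 to 28483 RPKM in Middle. Of 8 spermatogonial markers 4 were tested, 3 above 0 and 1 below (median 0.23, or 0.14 without Middle replicate 1). The rank correlation of transcript GC content with the deviation of a library from the mean of all libraries, taken across genes, was 0.446 in Middle replicate 1 and -0.294 to 0.028 in the other 5 libraries. Transcripts of the 9 genes had a GC content of 45.0% (Tsx) to 57.9% (Tubb3). After removal of each library's trend on GC the log2 fold change was 0.45 for Tsx, 0.28 for Rhox5, 0.22 for Gpd1 and for Serpina5, 0.21 for Drd4 and 0.12 for Tubb3, and the median of the 9 was 0.21. The part of the ribosomal, spermatid and spermatogonial genes in these differences was not tested.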

How the data were processed

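RNA-seq of 6 whole-testis libraries was read from 1 deposited table. Trizol-extracted total RNA went into messenger RNA libraries, per the labels' protocols. The submitters' processing notes name fastp 0.23.0 and the build GRCm39. Aligner, counter, use of strand and handling of multiply matching reads are details not given in the sources used here. Per the file headers, the table held RPKM that the authors had computed, with a gene length, and other deposited columns gave exon coordinates. RPKM times length came out as whole reads in every library, and 74.7% to 76.3% of values of 1 to 10 reads were even, as when both mates are counted. A count of 0 allows up to 3 fragments (6 reads), or 0.103 to 0.155 RPKM for a gene of 1 kb. Such limits cover counting error only.

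Libraries were grouped by title. Pairs of one group differed by more than sampling noise (chi-square per degree of freedom 5.85 to 31.25). The 15040 genes whose mean reached 1 RPKM in either group were tested on log2(RPKM + 1) with limma-trend (limma 3.58.1, R 4.3.3), two-sided, with Benjamini-Hochberg adjustment over all of them. SE and 95% intervals are from that fit, and ratios are of mean RPKM. The fit was tested on simulated data. GC content came from the longest GENCODE M21 transcript of a symbol (93.11% of tested genes), removed by loess with a span of 0.5. limma-voom used genes with at least 10 reads in 3 libraries.

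The 9 genes and the lists were chosen with earlier results of these data known. All 9 members were named, with genes of the androgen and glucocorticoid lists, and from each marker list up to 3 of the most abundant genes or defining markers at 0. Sox9, Wt1, Gata4, Amh, Fshr, Crisp1, Star, Cidec and Plin4 fall outside that rule and were named after their values were seen. The Rhox family was added after seeing the data. Some genes that the rule takes are not reported here. The other alternatives were pseudocounts of 0.1 and 0.01, other filters, median-of-ratios scaling, a replicate block and leaving out each library.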

Additional observations from a re-analysis of the deposited data

How the results depend on the processing

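No member was called under any of the 15 alternatives (14 for Drd4, which the filter on the mean of all 6 libraries left out), and the median log2 fold change of the members was 0.19 to 0.31. Of all genes 8 were called, and 0 without the filter on low values, 0 with the replicate block, 4 with the GC trend removed and 1 with the GC trend removed and Middle replicate 1 left out. Leaving out 1 library gave 0 to 3 calls, with 3 when it was Control replicate 1, 1 when it was Middle replicate 1 and 0 for the other 4. The cause was not tested. With the GC trend removed and without Middle replicate 1, the log2 fold change was -0.0090 for Eppin, -0.0074 for Corin and -0.0086 for Tubb3, and Corin ranged from -0.0054 (without Control replicate 1) to 0.072 (without Middle replicate 2) over the fits with 1 library left out. Same-numbered libraries did not deviate together (Pearson r across genes -0.153, -0.119 and 0.005). With 3 libraries a group, this cannot show whether the libraries are paired by number. With the block, 5 of 9 members again had an unadjusted p under 0.05, against 15.1% of all genes. This count was lower in some other fits. Dropping Control replicate 1 gave 2 of 9, against 9.58%. GC removal combined with dropping Middle replicate 1 gave 2 of 9, against 15.4%. The count was 3 of 9 after dropping Control replicate 2 (17.4%). Middle replicate 3, when dropped, gave 3 of 9 (18.3%), and so did Middle replicate 1 (16.3%). The remaining alternatives gave 5 of 9, or 4 of 8 under the filter that left out Drd4. Median-of-ratios scaling moved the median of all genes from 0.03 to 0.00, and the share of genes above 0 from 55.9% to 50.3%, with 9 of 9 members above 0 in both. Depth limits Drd4 most.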

Other observations

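The Rhox genes, a cluster of homeobox genes on chromosome X to which Rhox5 and Rhox8 belong, did not move as 1 group. They were looked at after the values of Rhox5 were seen. Of 40 genes and pseudogenes of the family in the table, 16 were tested, 8 above 0 and 8 below, with 0 called and 7 at an unadjusted p under 0.05 (limma, where 20.7% of all genes were), and 0 and 8 by limma-voom (17.9% of all genes). Rhox13, expressed in germ cells, averaged 8.20 ± 0.998 RPKM in Control against 10.6 ± 1.53 in Middle (SD, n = 3 each), with no overlap of the groups. The 7 tested Rhox3 copies were all below 0. Rhox3g was at 2.83 ± 0.291 and 1.69 ± 0.513 RPKM and Rhox3c at 4.31 ± 0.374 and 2.97 ± 0.750 RPKM (SD, n = 3 each). These copies are near-identical, so the split of reads between them is uncertain.

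Tsx, Rhox5 and Rhox8 are all X-linked. Genes of chromosome X as a whole were not higher in Middle, and a bearing of the chromosome on these genes was not tested. Of 491 tested genes of chromosome X, 47.9% lay above 0, with a median log2 fold change of -0.02, and of 14549 genes of other chromosomes 56.2% did, with a median of 0.03. Without Middle replicate 1 the medians were -0.01 and 0.03.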
